A study of Mus musculus with 12 samples.

Results

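Fatty acid oxidation and peroxisome genes were followed in 2 mouse islet tumour cell lines treated with the small molecule GW8510. The 38 genes encode the carnitine shuttle, the mitochondrial cycle with its accessory and electron transfer proteins, peroxisomal oxidation, peroxisome assembly and the regulator PPAR alpha. They were chosen by name for their role, with earlier results of these data known, and all 38 were read among the 12255 genes tested. After GW8510, 23 of them were higher and 4 lower in aTC1 cells, and 16 were higher and 1 lower in bTC3 cells. The shares of all genes tested were 20.2% and 21.2% in aTC1 and 19.7% and 14.3% in bTC3. Higher in both lines were 14 of the 38, against 9.1% of all genes. Acaa1b, a peroxisomal thiolase, read 252 to 259.8 in aTC1 with GW8510 against 24.0 to 26.9 with DMSO, near the lower limit of the values, and did not pass in bTC3. Its rise rests on 1 probe set, and 2 probe sets shared with its near-identical neighbour Acaa1a gave log2 values of -0.10 and -0.04 in aTC1.

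The groups were aTC1 cells with GW8510, aTC1 cells with DMSO, bTC3 cells with GW8510 and bTC3 cells with DMSO, with 3 biological replicates in each. For replicates 2 and 3 with GW8510 in both lines a source label reads GW8511 and GW8512, whereas their titles and compound fields read GW8510, and they were taken as GW8510. GW8510 was given at 3.3 µM for 5 days with a renewal of medium and compound on day 3, and all cultures, treated or control, held 0.1% DMSO. The aTC1 line comes from a glucagon-producing tumour and the bTC3 line from an insulin-producing tumour, and both tumours arose in mice with a transgene for the large T antigen of SV40, which blocks p53 and retinoblastoma family proteins. Each is a single immortal line, so the arrays compare cultures of a line and not animals. GW8510 is annotated as a CDK2 inhibitor, and the arrays were run to profile what it does to transcript levels in alpha cells, with bTC3 as the other islet line. The low-glucose medium given in the labels is described for aTC1 only.

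Fatty acids enter mitochondria as carnitine esters, made by carnitine palmitoyltransferase 1 at the outer membrane and turned back into CoA esters inside. Each turn of the cycle then uses an acyl-CoA dehydrogenase, a hydratase, a hydroxyacyl-CoA dehydrogenase and a thiolase, and the electrons pass through electron transfer flavoprotein to the respiratory chain. Very long and branched chains are shortened first in peroxisomes, whose proteins are imported by the peroxins. In islet cells fatty acids serve as fuel, and they also modulate hormone secretion, with malonyl-CoA acting as the inhibitor of carnitine palmitoyltransferase 1.

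Gene levels are array intensities in arbitrary units, limited to between 20 and 20000 in the deposited values. Median intensity was 173.7 to 182.0 on 11 arrays and 199.9 on the remaining one, bTC3 GW8510 replicate 3, which stood apart in this respect. Within groups the lowest correlation between arrays across genes was 0.994 to 0.998, and genes are not independent replicates. Alpha and beta cell markers were checked against the line names. The glucagon gene Gcg was at the upper limit on all aTC1 arrays, and the insulin gene Ins2 was at that limit in bTC3, against means of 153 with GW8510 and 96.8 with DMSO in aTC1. The bTC3 arrays also read Gcg at a mean of 12041 with GW8510 and 6420 with DMSO, and Sst, the somatostatin gene, at 20000 with GW8510 and 17819 with DMSO, so bTC3 carried transcripts of more than one islet hormone. Some markers moved with treatment. Of all genes tested, 20.2% were higher and 21.2% lower in aTC1, and 19.7% higher and 14.3% lower in bTC3. In aTC1, 3 of 6 measured beta cell markers (Pdx1, Iapp and Ins2) were higher with GW8510. The summed intensity of the 6 was 2950 to 3249 with GW8510 and 2338 to 2469 with DMSO. In bTC3, 1 of the 6 was higher and 2 were lower, with log2 values of -0.27 to 5.12. Their sum there was 57022 to 59068 with GW8510 and 53647 to 54977 with DMSO. The 6 alpha cell markers summed to 44547 to 44848 with GW8510 and to 33330 to 34362 with DMSO in aTC1, where 2 were higher (Ttr and Pou3f4) and 2 lower (Irx1 and Irx2). In bTC3 they summed to 32238 to 33923 with GW8510 and to 26597 to 27297 with DMSO, and 2 of 6, Gcg and Slc7a2, were higher. Of the 3 hepatocyte markers, 2 were higher in aTC1, Apoa1 and Ttr, the second of which is also in the alpha cell list, and the sum was 19822 to 20152 with GW8510 and 7994 to 9016 with DMSO, while Alb averaged 29.4 with GW8510 and 33.1 with DMSO. In bTC3 none of the 3 passed. Their sums there were 20127 to 20138 with GW8510 and 20124 to 20134 with DMSO. Ttr was thus at the upper limit of 20000 in bTC3 and could not be seen to rise. In treated aTC1 cells Ttr was close to that limit, so its rise and the alpha cell sums may be read too low. The 4 acinar markers summed to 973 to 1052 with GW8510 and 751 to 787 with DMSO in aTC1, and to 473 to 491 with GW8510 and 338 to 452 with DMSO in bTC3, and Cela1 was the 1 that was higher, in both lines. The 5 fibroblast and vessel markers summed to 475 to 573 with GW8510 and 335 to 374 with DMSO in bTC3, where Col1a2 was higher, and none passed in aTC1. In the lists for delta and PP, ductal and immune cells 1 of 3 was higher in aTC1 (Hhex, Muc1 and Cd74) and none passed in bTC3. The part of these shifts in the results on fatty acid genes was not tested.

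GW8510 was compared with DMSO inside each line with limma. A single fit held all 12 arrays, and p-values were adjusted after Benjamini-Hochberg across the 12255 genes. A gene was called higher or lower at an adjusted p under 0.05, and errors of log2 fold changes are standard errors of that fit, with 3 arrays in each group. Each array read RNA of a whole culture, so fewer cells expressing a gene and less RNA in each cell cannot be told apart. In aTC1, 27 of the 38 genes passed, 23 of them higher and 4 lower, and the median log2 fold change of the 38 was 0.32. Of all genes tested, 41.3% passed in aTC1, 20.2% higher and 21.2% lower, with a median of 0.03. In bTC3, 17 of the 38 passed, 16 of them higher and 1 lower, and the median was 0.15. There 34.1% of all genes passed, 19.7% higher and 14.3% lower, with a median of 0.07. GW8510 and DMSO arrays did not overlap for 33 of the 38 genes in aTC1, against 51.4% of all genes, and for 22 in bTC3, against 45.9%. The 14 genes higher in both lines were 36.8% of the set, 14 of the 23 higher in aTC1 and 14 of the 16 higher in bTC3, whereas 9.1% of all genes were higher in both. None of the 38 was lower in both lines or called in opposite directions, against 9.0% and 3.6% of all genes. Without bTC3 GW8510 replicate 3, 15 were higher and 4 lower in bTC3.

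**Figure D1:**
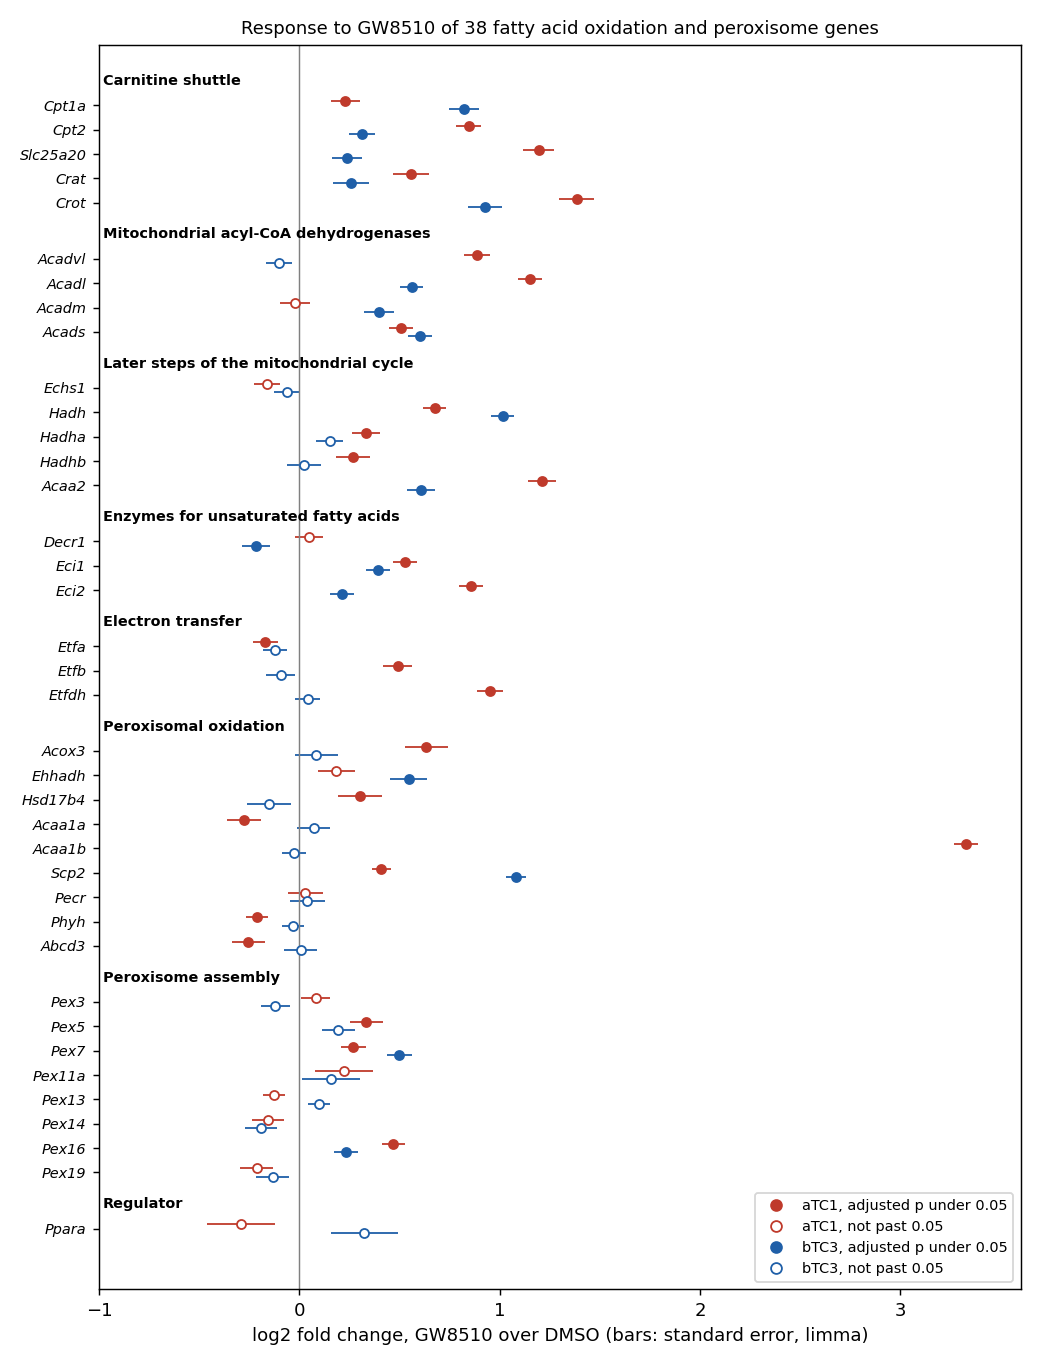
Log2 fold change of each of the 38 genes, GW8510 over DMSO, in aTC1 (red) and bTC3 (blue), grouped by role, with bars for the standard error of the limma fit and filled points for an adjusted p under 0.05. All 5 carnitine shuttle genes lie to the right of zero as filled points in both lines, and Acaa1b stands alone at 3.33 in aTC1.

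The carnitine shuttle was the group in which all members moved together, 5 of 5 higher in each line, with median log2 fold changes of 0.84 in aTC1 and 0.31 in bTC3. Of all genes tested, 20.2% were higher in aTC1 and 19.7% in bTC3. Crot, the peroxisomal carnitine octanoyltransferase that hands shortened chains on to mitochondria, read 485, 542 and 649 in aTC1 with GW8510, against 217, 209 and 212 with DMSO. The bTC3 values were 1858, 1894 and 1841 with GW8510, against 961, 1023 and 958 with DMSO. In both lines all 3 treated arrays lay above all 3 control arrays. The log2 fold change was 1.38 ± 0.09 in aTC1 (2.61-fold, limma adjusted p = 1.1e-07) and 0.93 ± 0.09 in bTC3 (1.90-fold, limma adjusted p = 8.3e-06).

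Slc25a20, the carnitine-acylcarnitine carrier of the inner mitochondrial membrane, responded far more in aTC1. It read 840.1, 806 and 1006 with GW8510 and 377, 394 and 382 with DMSO in aTC1, with no overlap, a 2.29-fold difference (log2 1.20 ± 0.08, limma adjusted p = 1.4e-07). In bTC3 the readings were 562, 595 and 593 with GW8510 and 482, 519 and 484 with DMSO, close together but also without overlap (1.18-fold, log2 0.24 ± 0.08, limma adjusted p = 0.031). That bTC3 call was lost when bTC3 DMSO replicate 1 or 3 or bTC3 GW8510 replicate 2 or 3 was left out. The other probe set of Slc25a20 gave log2 fold changes of 1.25 in aTC1 and 0.25 in bTC3.

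Cpt1a, the liver-type carnitine palmitoyltransferase 1 that controls entry of long chains, showed the reverse weighting. In aTC1 it read 3194, 2962 and 3101 with GW8510 and 2626, 2490 and 2782 with DMSO, where the treated arrays were higher by 1.17-fold (log2 0.23 ± 0.07, limma adjusted p = 0.025). In bTC3 it read 454, 419.5 and 512 with GW8510 and 264, 264 and 253 with DMSO, further apart at 1.77-fold (log2 0.82 ± 0.07, limma adjusted p = 6.2e-06). The aTC1 call was lost when aTC1 DMSO replicate 1 or 2 or aTC1 GW8510 replicate 1 or 3 was left out. The other 2 probe sets of Cpt1a gave 0.16 and -0.01 in aTC1 and 0.23 and 0.12 in bTC3, and neither passed in either line, so the response of Cpt1a rests on the brightest probe set.

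Cpt2, the inner-membrane carnitine palmitoyltransferase, was higher by log2 0.84 in aTC1 and 0.31 in bTC3, although its dimmer probe set, at 0.32 and 0.11, passed in neither. Crat, the carnitine acetyltransferase, was higher by 0.56 in aTC1 and by 0.26 in bTC3. Its dimmer probe set gave 0.27 in aTC1, which did not pass (limma adjusted p = 0.23), and 0.49 in bTC3, which did. The bTC3 value of Crat had a limma adjusted p of 0.044 and was lost when any of 5 bTC3 arrays, all but GW8510 replicate 3, was left out, and also without aTC1 DMSO replicate 2 or aTC1 GW8510 replicate 2.

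Among the 4 mitochondrial acyl-CoA dehydrogenases, which differ in the chain lengths they take, 3 were higher in aTC1 and 3 in bTC3, but not the same 3. That is 75% in each line, against 20.2% of all genes in aTC1 and 19.7% in bTC3. Acadl, the long-chain enzyme, read 3559, 3575 and 3510 in aTC1 with GW8510, against 1587, 1583 and 1624 with DMSO. Readings in bTC3 were 1100, 1145 and 1265 with GW8510, against 803, 763 and 810.3 with DMSO. Groups lay apart in both lines, at 2.22-fold in aTC1 (log2 1.15 ± 0.06, limma adjusted p = 1.8e-08) and 1.48-fold in bTC3 (log2 0.56 ± 0.06, limma adjusted p = 1.7e-05). The dimmer probe set of Acadl gave 0.38, which passed, in aTC1 and 0.13, which did not, in bTC3.

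Acadvl, the very long-chain enzyme of the inner membrane, was higher in aTC1 alone. It read 3377, 3382 and 3240 there with GW8510 and 1768, 1799 and 1845 with DMSO (1.85-fold, log2 0.89 ± 0.07, limma adjusted p = 4.4e-07). In bTC3 it read 949, 964 and 1117 with GW8510 and 1075, 1046 and 1118 with DMSO, ranges that overlapped (log2 -0.10 ± 0.07, limma adjusted p = 0.27). Without bTC3 GW8510 replicate 3, the array with the raised median, Acadvl was lower in bTC3, at -0.17 (limma adjusted p = 0.018).

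Acadm, the medium-chain enzyme, showed the other arrangement. Its readings in aTC1 were 1524, 1448 and 1357 with GW8510 and 1503, 1433 and 1461 with DMSO, which overlapped (log2 -0.02 ± 0.07). In bTC3 they were 641, 626 and 748 with GW8510 and 480.4, 519 and 527 with DMSO, which did not overlap (1.32-fold, log2 0.40 ± 0.07, limma adjusted p = 0.0014). Acads, the short-chain enzyme, was higher in both lines, with a difference between the responses of -0.10 ± 0.09 that did not pass. It read 1334, 1309 and 1262 in aTC1 with GW8510 against 919, 878 and 955 with DMSO, and 434, 457 and 446 in bTC3 with GW8510 against 305, 306 and 272 with DMSO. These are 1.42-fold (log2 0.51 ± 0.06) and 1.52-fold (log2 0.60 ± 0.06), with limma adjusted p-values of 2.5e-05 and 1.4e-05.

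**Figure D2:**
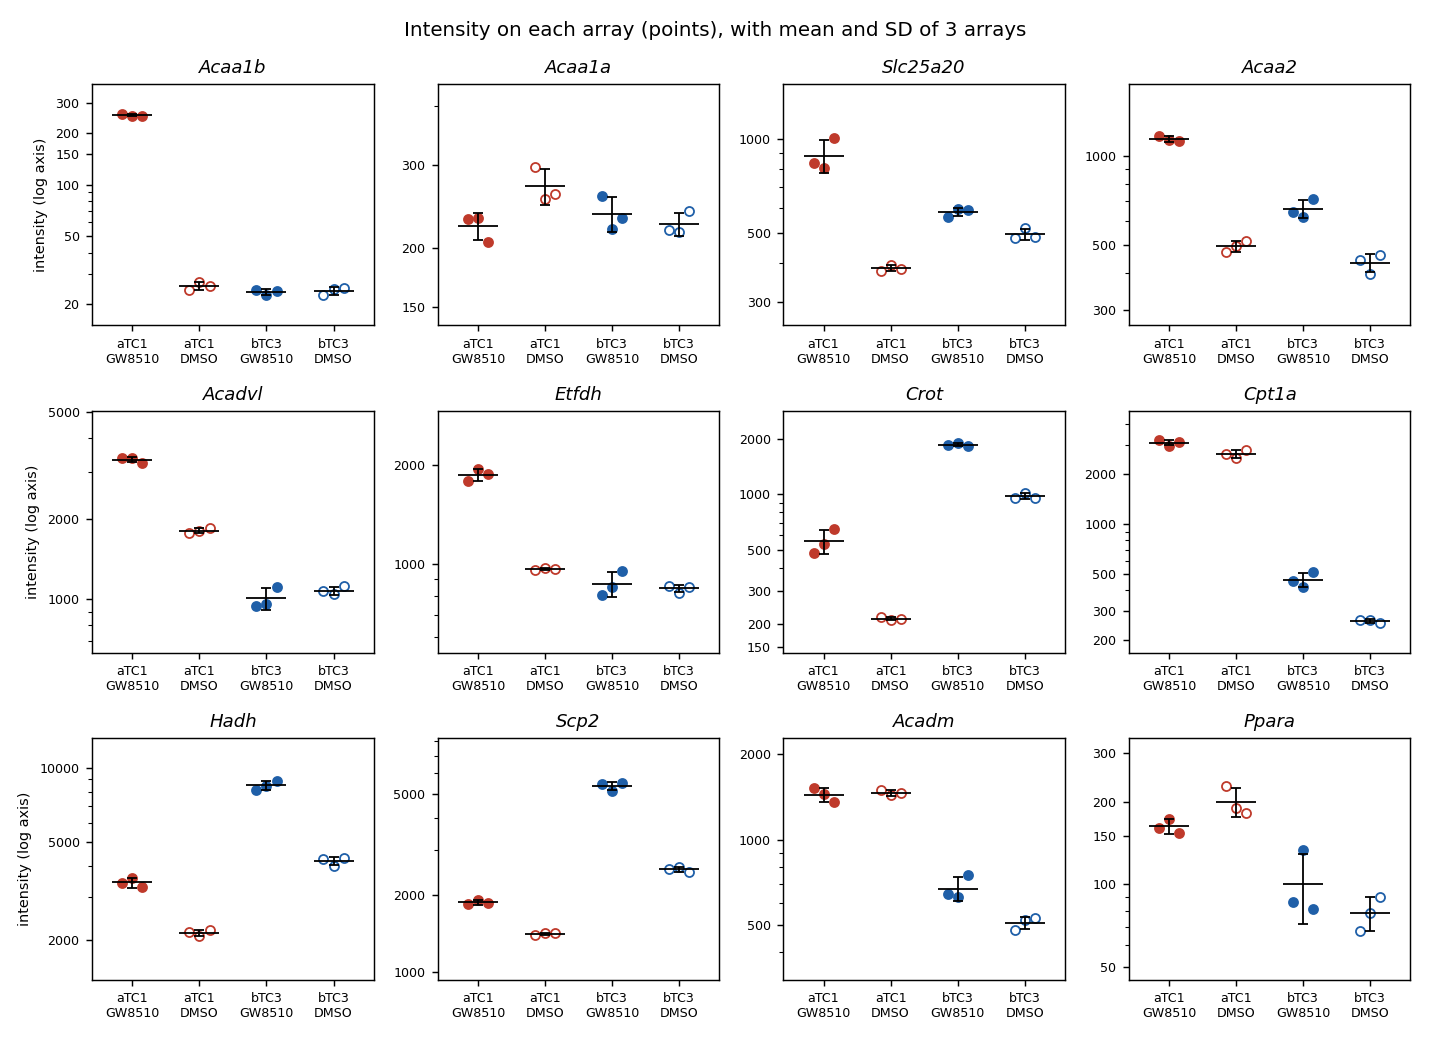
Intensity of 12 of the genes on each array (points, log axis), by group, with the mean and SD of 3 arrays as horizontal line and bar. Acaa1b lies between 252 and 259.8 in aTC1 with GW8510 and between 22.5 and 26.9 in the other 3 groups, whereas Hadh and Scp2 read highest in bTC3 with GW8510.

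Of the 5 genes for the later steps of the mitochondrial cycle, 4 were higher in aTC1 and 2 in bTC3. That is 80% and 40%, against 20.2% and 19.7% of all genes. Acaa2, the mitochondrial 3-ketoacyl-CoA thiolase that closes the cycle, read 1172, 1134 and 1120 in aTC1 with GW8510, against 473, 494 and 514 with DMSO. Its bTC3 readings were 647, 622 and 715 with GW8510, against 444, 399 and 459 with DMSO. It was higher in both lines without overlap, by 2.31-fold in aTC1 (log2 1.21 ± 0.07, limma adjusted p = 5.6e-08) and 1.52-fold in bTC3 (log2 0.61 ± 0.07, limma adjusted p = 3.9e-05). Its other 2 probe sets also passed in both lines, at 0.89 and 1.16 in aTC1 and 0.31 and 0.54 in bTC3.

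Hadh, the short-chain 3-hydroxyacyl-CoA dehydrogenase, is the member with the best known tie to insulin secretion, since its loss causes hyperinsulinism in people. It read 3430, 3598 and 3279 in aTC1 with GW8510, against 2167, 2080 and 2202 with DMSO. In bTC3 it read 8177, 8489 and 8818 with GW8510, against 4291, 4014 and 4300 with DMSO. The treated arrays lay above the controls in each line, at 1.60-fold in aTC1 (log2 0.68 ± 0.06, limma adjusted p = 1.3e-06) and 2.02-fold in bTC3 (log2 1.02 ± 0.06, limma adjusted p = 1.8e-07). All 3 probe sets of Hadh passed in both lines.

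Hadha and Hadhb, the alpha and beta subunits of the trifunctional protein, were higher in aTC1 by 0.33 and 0.27. In bTC3 they had log2 values of 0.15 and 0.02 and did not pass. For Hadhb the aTC1 call was lost without aTC1 DMSO replicate 2 or 3 or aTC1 GW8510 replicate 3, while its other probe set gave 0.60 in aTC1 and 0.21 in bTC3, both past the threshold. Echs1, the short-chain enoyl-CoA hydratase, did not pass in either line, with -0.16 in aTC1 and -0.06 in bTC3. All 3 treated aTC1 arrays of Echs1 nevertheless lay below the controls.

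Unsaturated fatty acids need isomerases and a reductase before the cycle can use them. Eci2, an enoyl-CoA isomerase found in peroxisomes and mitochondria, read 2051, 2105 and 2133 in aTC1 with GW8510 and 1197, 1125 and 1152 with DMSO, which is 1.81-fold (log2 0.86 ± 0.06, limma adjusted p = 2.3e-07). Its readings were 1255, 1217 and 1345 in bTC3 with GW8510 and 1165, 1068 and 1062 with DMSO, a narrow gap of 1.16-fold (log2 0.21 ± 0.06, limma adjusted p = 0.014) that no longer passed without bTC3 DMSO replicate 2 or 3. Eci1, the mitochondrial isomerase, was higher by 0.53 in aTC1 and 0.39 in bTC3. Decr1, the mitochondrial 2,4-dienoyl-CoA reductase, was the single gene of the 38 that was lower in bTC3. It read 335, 348 and 341 there with GW8510 and 391, 392 and 408 with DMSO (log2 -0.22 ± 0.07, limma adjusted p = 0.028). That call was lost when any bTC3 DMSO array or bTC3 GW8510 replicate 1 or 3 was left out, and the other probe set of Decr1 gave -0.06.

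Electron transfer flavoprotein takes electrons from the acyl-CoA dehydrogenases, and its dehydrogenase passes them to ubiquinone. Etfdh, which encodes that dehydrogenase, read 1795, 1950 and 1876 in aTC1 with GW8510 and 964, 977 and 965 with DMSO, without overlap (1.93-fold, log2 0.95 ± 0.06, limma adjusted p = 2.0e-07). Readings of Etfdh were 809, 853 and 954 in bTC3 with GW8510 and 862, 820.2 and 855 with DMSO, and the groups overlapped (log2 0.04 ± 0.06). The flavoprotein subunits went different ways in aTC1, where Etfb was higher by 0.49 and Etfa had a log2 value of -0.17 (limma adjusted p = 0.041). The call of Etfa was lost when any of 9 arrays was left out, all 3 aTC1 DMSO arrays and all 3 bTC3 DMSO arrays among them. In aTC1, 66.7% of the 3 genes were thus higher and 33.3% lower, against 20.2% and 21.2% of all genes. None of the 3 passed in bTC3, against 34.1% of all genes, and Etfb and Etfa had log2 values of -0.09 and -0.12 there. Without bTC3 GW8510 replicate 3, Etfb at -0.18 and Etfa at -0.17 were lower in bTC3.

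Peroxisomal oxidation was the most divided group, with 4 of 9 genes higher and 3 lower in aTC1, and 2 higher and none lower in bTC3. In aTC1 these are 44.4% and 33.3%, against 20.2% and 21.2% of all genes. In bTC3 the 22.2% higher was near the 19.7% of all genes, of which 14.3% were lower. Acaa1b and Acaa1a encode near-identical peroxisomal 3-ketoacyl-CoA thiolases, of which thiolase B is known in rodent liver as the form induced by PPAR alpha agonists. Their promoters are shown here because this pair carried the widest contrast of the set, together with those of Slc25a20 and Scp2, which favoured aTC1 and bTC3. The sequences are those of RefSeq on GRCm38.p6, 250 bases before to 50 after the annotated start, 5′ to 3′ on the gene's strand. Capitals mark the GC box GGGCGG and the CCAAT box, each as written or as its reverse complement. The windows are chr9:119157044-119157343 on the minus strand for Acaa1b, chr9:119341044-119341343 on the plus strand for Acaa1a, chr9:108661886-108662185 on the plus strand for Slc25a20 and chr4:108118498-108118797 on the minus strand for Scp2. For Scp2 this start lies inside the annotated span of the gene and not at its upstream end.
Acaa1b: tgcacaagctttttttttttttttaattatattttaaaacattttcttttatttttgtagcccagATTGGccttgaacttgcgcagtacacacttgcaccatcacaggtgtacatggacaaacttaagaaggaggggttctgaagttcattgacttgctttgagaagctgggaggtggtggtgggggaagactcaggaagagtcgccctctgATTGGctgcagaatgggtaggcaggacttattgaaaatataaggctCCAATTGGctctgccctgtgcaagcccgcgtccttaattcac
Acaa1a: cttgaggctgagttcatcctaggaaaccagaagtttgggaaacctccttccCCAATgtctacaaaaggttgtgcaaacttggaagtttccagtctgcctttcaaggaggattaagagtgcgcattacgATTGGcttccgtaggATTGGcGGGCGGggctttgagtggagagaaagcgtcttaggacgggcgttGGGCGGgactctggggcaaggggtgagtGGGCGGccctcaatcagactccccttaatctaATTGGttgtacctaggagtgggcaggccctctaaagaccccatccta
Slc25a20: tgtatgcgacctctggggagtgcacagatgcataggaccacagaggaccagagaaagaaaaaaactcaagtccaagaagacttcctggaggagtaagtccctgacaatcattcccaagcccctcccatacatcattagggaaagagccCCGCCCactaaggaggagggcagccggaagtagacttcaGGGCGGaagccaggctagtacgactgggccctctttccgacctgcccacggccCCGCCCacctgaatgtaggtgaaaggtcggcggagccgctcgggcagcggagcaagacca
Scp2: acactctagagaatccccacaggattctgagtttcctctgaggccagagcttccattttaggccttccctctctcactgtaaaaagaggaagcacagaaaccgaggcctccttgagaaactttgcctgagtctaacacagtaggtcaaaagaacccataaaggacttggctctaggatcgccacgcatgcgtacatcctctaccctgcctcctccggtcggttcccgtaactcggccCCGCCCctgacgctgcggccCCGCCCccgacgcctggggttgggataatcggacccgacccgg

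Acaa1b read 259.8, 253 and 252 in aTC1 with GW8510, against 24.0, 26.9 and 25.4 with DMSO. In bTC3 it read 24.2, 22.5 and 23.9 with GW8510, against 22.5, 24.5 and 24.7 with DMSO. Signal well above the lower limit of 20 was thus seen in treated aTC1 cells only, on all 3 arrays. The log2 fold change was 3.33 ± 0.06 in aTC1 (10.0-fold, limma adjusted p = 7.7e-12) and -0.03 ± 0.06 in bTC3 (limma adjusted p = 0.78). Because the DMSO readings sat near the lower limit, the fold in aTC1 depends on how well values of this size were measured. Acaa1a read 231, 233 and 206 in aTC1 with GW8510, against 298, 254 and 261 with DMSO, and was lower without overlap (log2 -0.28 ± 0.08, limma adjusted p = 0.019). That call was lost without aTC1 DMSO replicate 1 or aTC1 GW8510 replicate 3, and the other probe set of Acaa1a, at -0.44, passed. In bTC3 Acaa1a read 259, 219.9 and 232 with GW8510 and 219, 217 and 239.9 with DMSO, which overlapped (log2 0.07 ± 0.08).

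The platform has 2 more probe sets assigned to both thiolase genes, which were not used for either gene. They gave log2 values of -0.10 and -0.04 in aTC1, with limma adjusted p-values of 0.42 and 0.73, and 0.01 and 0.00 in bTC3. The rise of Acaa1b was therefore read by 1 probe set and was not seen in the probe sets that both genes share. Transcripts of so similar a pair may also cross-hybridize, so the separate values of Acaa1a and Acaa1b are uncertain.

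Scp2, whose gene yields sterol carrier protein 2 and a thiolase for branched chains, rose in both lines, and more in bTC3. In aTC1 it read 1847, 1922 and 1869 with GW8510, against 1402, 1419 and 1424 with DMSO (1.33-fold, log2 0.41 ± 0.05, limma adjusted p = 2.4e-05). The bTC3 readings were 5431, 5134 and 5499 with GW8510, against 2545, 2579 and 2462 with DMSO, which is 2.12-fold (log2 1.08 ± 0.05, limma adjusted p = 3.6e-08). Both lines showed no overlap between groups. The other 3 probe sets of Scp2 gave 0.13, -0.18 and 0.12 in aTC1, where none passed, and 0.63, 0.43 and 0.35 in bTC3, where the first 2 passed.

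Ehhadh, the peroxisomal bifunctional enzyme, was dim in both lines. In aTC1 it read 27.3, 21.5 and 20 with GW8510 and sat at the lower limit of 20 on all 3 DMSO arrays, so no fold is given there (limma adjusted p = 0.15). In bTC3 it read 58.6, 59.1 and 59.8 with GW8510, against 42.4, 41.3 and 38.1 with DMSO, and was higher by 1.46-fold (log2 0.54 ± 0.09, limma adjusted p = 0.00077). It was the one gene of the 38 with any array at a limit.

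Of the remaining peroxisomal oxidation genes, Acox3, an acyl-CoA oxidase, was higher in aTC1 by 0.63, with dim readings of 46.5 to 51.7 with GW8510 and 29.6 to 35.9 with DMSO. Hsd17b4, the multifunctional enzyme for very long and branched chains, was higher in aTC1 by 0.30 at a limma adjusted p of 0.045, a call that 9 of 12 single-array omissions removed. Phyh, the phytanoyl-CoA hydroxylase of alpha-oxidation, read 1004, 1013 and 1012 with GW8510 and 1186, 1166 and 1162 with DMSO in aTC1, and was lower by a small but tight margin (log2 -0.21 ± 0.06, limma adjusted p = 0.0075). Abcd3, a peroxisomal membrane transporter, was lower in aTC1 at -0.25, lost without aTC1 DMSO replicate 2 or 3 or aTC1 GW8510 replicate 1. Pecr, a peroxisomal trans-2-enoyl-CoA reductase, had log2 values of 0.03 in aTC1 and 0.04 in bTC3 and passed in neither. In bTC3, Acox3 (0.08), Hsd17b4 (-0.15), Phyh (-0.03) and Abcd3 (0.01) did not pass either.

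Of the 8 peroxisome assembly genes, 3 were higher in aTC1 and 2 in bTC3, none was lower, and their median log2 values were 0.15 and 0.13. The higher genes were 37.5% and 25% of the group, against 20.2% and 19.7% of all genes. Lower were 21.2% of all genes in aTC1 and 14.3% in bTC3. Pex16, an early factor of membrane assembly, was higher by 0.47 in aTC1 and 0.23 in bTC3, but its other probe set gave -0.17 and 0.06, which did not pass. Pex7, the import receptor for proteins with the second type of targeting signal, was higher by 0.27 in aTC1 and 0.50 in bTC3. Pex5, the main import receptor, was higher by 0.33 in aTC1, where its other probe set gave 0.04. The other 5 genes (Pex3, Pex11a, Pex13, Pex14 and Pex19) did not pass in either line, with log2 values of -0.21 to 0.22 in aTC1 and -0.19 to 0.16 in bTC3.

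Ppara, the gene for PPAR alpha, a nuclear receptor whose known targets include many genes of this set, did not pass in either line. It read 161, 173 and 153 in aTC1 with GW8510, against 227, 190.1 and 181 with DMSO, all treated arrays below the controls (log2 -0.29 ± 0.17, limma adjusted p = 0.20). In bTC3 it read 86.3, 133 and 81.1 with GW8510, against 67.3, 78.4 and 89.7 with DMSO, which overlapped (log2 0.32 ± 0.17, limma adjusted p = 0.17). Its standard error was the largest of the 38.

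The responses of the lines were then compared with each other in the same fit, as the aTC1 response minus the bTC3 response. The difference passed for 18 of the 38 genes, with the response higher in aTC1 for 12 and lower in aTC1 for 6. Of all genes 28.5% passed, 12.0% and 16.4% in these directions. Acaa1b led at a log2 difference of 3.35 ± 0.09 (limma adjusted p = 2.5e-10). After it came Acadvl at 0.99 ± 0.09, Slc25a20 at 0.96 ± 0.11, Etfdh at 0.91 ± 0.09 and Eci2 at 0.64 ± 0.08, with limma adjusted p-values of 9.6e-06 to 0.00011. The aTC1 response thus exceeded the bTC3 response for the carrier, the very long-chain dehydrogenase and the dehydrogenase of electron transfer flavoprotein. Smaller differences in the same direction were found for Acaa2 (0.60), Acadl (0.59), Etfb (0.58), Acox3 (0.55), Cpt2 (0.53), Crot (0.46) and Hsd17b4 (0.46). Etfa, the other flavoprotein subunit, had a difference of -0.05 that did not pass.

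Scp2 led in the other direction, at -0.67 ± 0.07 (limma adjusted p = 1.9e-05). Cpt1a followed at -0.59 ± 0.10 (limma adjusted p = 0.0011), although the differences of its other 2 probe sets, -0.08 and -0.13, did not pass. Acadm was at -0.42, Acaa1a at -0.35, Hadh at -0.34 and Pex13 at -0.23. The differences of Hsd17b4, Acaa1a and Pex13 had limma adjusted p-values of 0.047, 0.047 and 0.048, were each lost when any of 8 or more single arrays was left out and did not pass when all probe sets of the platform were tested together. When the arrays were quantile-normalized once more, 14 of the 38 responses were higher and 4 lower in aTC1.

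**Figure D3:**
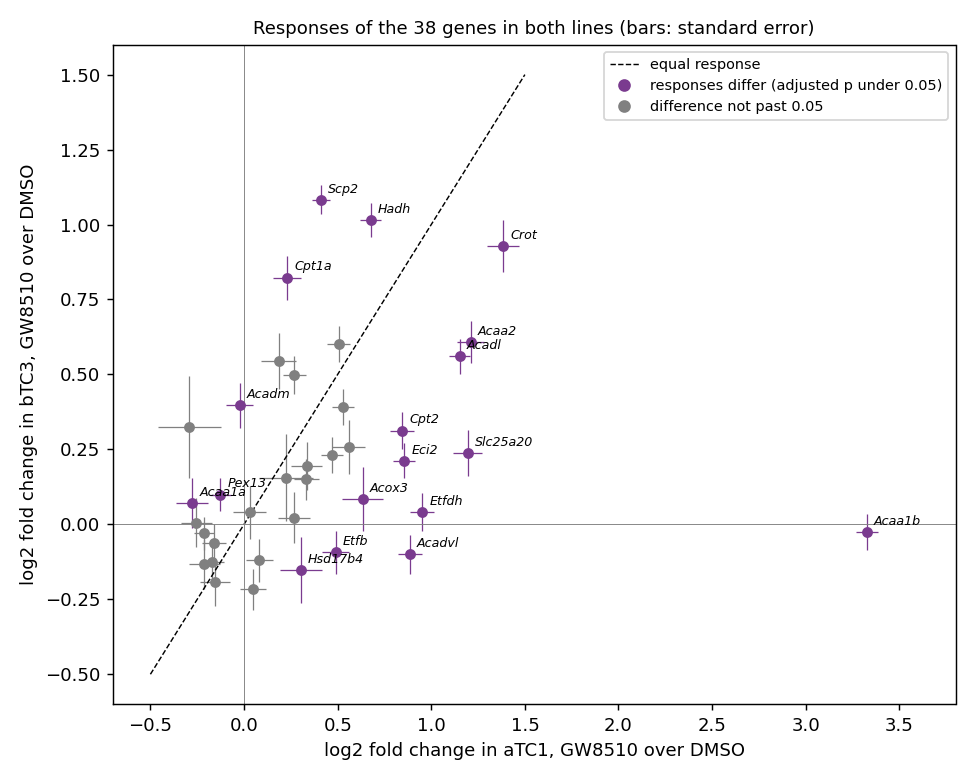
Log2 fold change, GW8510 over DMSO, of the 38 genes in aTC1 (horizontal axis) and in bTC3 (vertical axis), with standard errors as bars and a dashed line of equal response. The 18 named genes in purple are those whose responses differed at an adjusted p under 0.05, 12 of them below the line and 6 above it.

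The median absolute log2 difference of the 38 genes was 0.64 between the DMSO-treated lines, against 0.32 for the response in aTC1 and 0.19 for that in bTC3, and over all genes these medians were 0.27, 0.18 and 0.16. Between the DMSO cultures 32 of the 38 genes passed, 20 higher and 12 lower in aTC1. Of all genes 55.7% passed, 28.9% higher and 26.8% lower. The aTC1 and bTC3 arrays did not overlap for 33 of the 38, against 65.8% of all genes. The comparison of lines rests on 1 line of each kind, so line and cell type cannot be told apart.

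Cpt1a had the widest difference, with 2626, 2490 and 2782 in aTC1 with DMSO and 264, 264 and 253 in bTC3 with DMSO. This is 10.1-fold higher in aTC1 (log2 3.34 ± 0.07, limma adjusted p = 4.1e-12), and its other 2 probe sets gave 2.61 and 2.66. All 4 acyl-CoA dehydrogenases were higher in aTC1, Acads by 1.64 ± 0.06, Acadm by 1.53 ± 0.07, Acadl by 1.01 and Acadvl by 0.74. The DMSO readings of Acads were 919, 878 and 955 in aTC1 and 305, 306 and 272 in bTC3, and those of Acadm were 1503, 1433 and 1461 in aTC1 and 480.4, 519 and 527 in bTC3. Echs1, the next enzyme of the cycle, read 2685, 2664 and 2682 in aTC1 and 1021, 961 and 987 in bTC3 (log2 1.44 ± 0.06, limma adjusted p = 1.5e-09). The entry enzyme, the 4 dehydrogenases and the hydratase were thus all higher in aTC1, with groups apart on every array. Not every step was. Of the 5 carnitine shuttle genes 3 were higher and 2 lower in aTC1, and of the 5 later-step genes 3 were higher and 1 lower. The lower genes included the carrier Slc25a20 (-0.36, and -0.51 from its other probe set) and Hadh (-0.97). The dimmer probe set of Acadl gave 0.08 and did not pass.

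Peroxisomal genes were higher in either line. Pecr read 425, 434 and 447 in aTC1 with DMSO and 139, 139 and 128 in bTC3 with DMSO (log2 1.68 ± 0.09, limma adjusted p = 6.5e-09), although its other, dimmer probe set gave 0.27. Pex11a, which drives division of peroxisomes, read 349, 325 and 353 in aTC1 and 113, 132 and 133 in bTC3 (log2 1.45 ± 0.14, limma adjusted p = 2.4e-06), with 1.55 from its other probe set. Ppara was higher in aTC1 as well, at 227, 190.1 and 181 against 67.3, 78.4 and 89.7 in bTC3 (2.55-fold, log2 1.35 ± 0.17, limma adjusted p = 1.8e-05).

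Crot was the gene most in favour of bTC3. It read 217, 209 and 212 in aTC1 with DMSO and 961, 1023 and 958 in bTC3 with DMSO (log2 -2.21 ± 0.09, limma adjusted p = 4.7e-10). Decr1 (-1.14), Abcd3 (-1.12), Hadh (-0.97), Scp2 (-0.84), Pex7 (-0.78) and Pex3 (-0.56) were also lower in aTC1. For Decr1 the other, dimmer probe set gave 0.05, which did not pass, so its difference rests on the brighter probe set. Ehhadh was lower in aTC1 by at least 1.02 on the log2 scale, a bound because all aTC1 DMSO readings were at the lower limit.

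**Figure D4:**
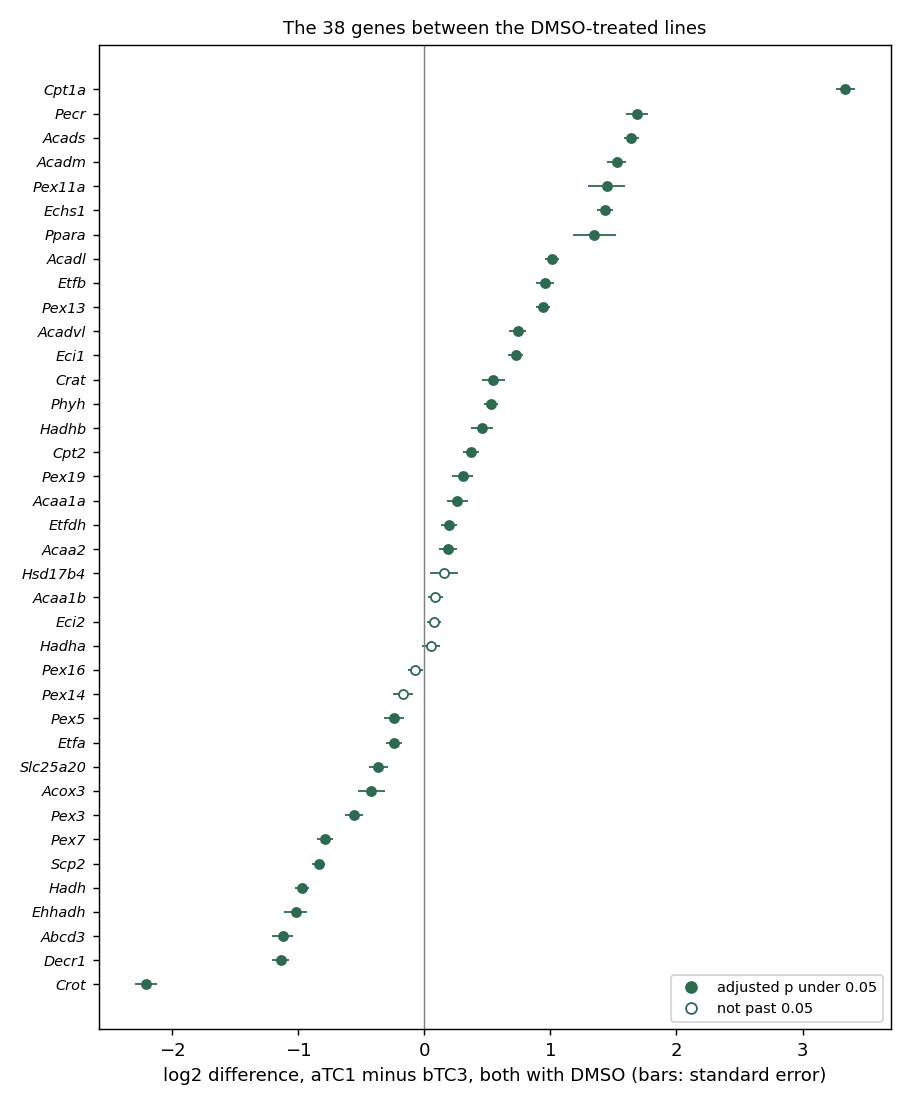
Log2 difference of the 38 genes between the DMSO-treated lines, aTC1 minus bTC3, ordered by size, with standard errors as bars and filled points for an adjusted p under 0.05. Cpt1a lies at 3.34 and Crot at -2.21, and 6 genes near zero did not pass.

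Other genes of these pathways were read from lists outside the 38. Of 26 further fatty acid oxidation genes, 21 were measured. In aTC1, 8 of these were higher and 1 lower, and in bTC3 8 were higher and 3 lower, with median log2 values of 0.15 and 0.11. The higher genes were 38.1% of those measured in each line, against 20.2% of all genes in aTC1 and 19.7% in bTC3, and the lower ones 4.76% in aTC1, against 21.2% of all, and 14.3% in bTC3, the same share as over all genes. Ech1, a dienoyl-CoA isomerase of mitochondria and peroxisomes, was higher by 1.25 in aTC1 and 0.61 in bTC3, and Acsl6, an acyl-CoA synthetase, by 1.02 and 0.46. Acad8 and Acad9, relatives of the acyl-CoA dehydrogenases, were higher in aTC1 by 0.86 and 0.77, and Slc27a4, a fatty acid transport protein, was higher in bTC3 by 0.42. Acsl4, another acyl-CoA synthetase, was lower in aTC1 at -0.38, and Acad11 (-0.50), Ivd (-0.27) and Decr2 (-0.26) were lower in bTC3.

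Of 29 further peroxisome genes, 20 were measured, and 8 were higher and 6 lower in aTC1, against 12 higher and 1 lower in bTC3. That is 40% higher and 30% lower in aTC1, where 20.2% and 21.2% of all genes were, and 60% higher and 5% lower in bTC3, where 19.7% and 14.3% of all genes were. Idh1, the cytosolic and peroxisomal isocitrate dehydrogenase that makes NADPH, was higher by 1.72 in aTC1 and 0.64 in bTC3. Slc25a17, a peroxisomal carrier for cofactors, was higher by 1.09 in aTC1, where bTC3 gave -0.01. Cat, for catalase, was higher by 0.57 in aTC1 and 0.64 in bTC3, and Dhrs4, a peroxisomal reductase, by 0.48 in bTC3. Abcd2, a transporter of very long chains, was lower in aTC1 at -0.57. Pxmp2, a channel of the peroxisomal membrane, was lower in aTC1 at -0.27 and higher in bTC3 at 0.65, with a difference between the responses of -0.92 that passed, and Far1, for ether lipid synthesis, was the 1 gene lower in bTC3, at -0.43.

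Of 24 listed partners and further targets of PPAR alpha, 19 were measured. In aTC1, 2 of the 19 were higher and 2 lower, against 20.2% and 21.2% of all genes, and in bTC3 4 of the 19 were higher and 2 lower, shares near the 19.7% and 14.3% of all genes. Plin2, the lipid droplet coat protein, was higher by 1.30 in aTC1 and 0.98 in bTC3, and Angptl4, an inhibitor of lipoprotein lipase, by 0.32 in aTC1. Lpl, lipoprotein lipase itself, was lower in aTC1 at -0.71, and the coactivator gene Ppargc1b was lower in both lines, at -0.36 in aTC1 and -0.43 in bTC3. In bTC3, Cd36 (0.48), Rxra (0.40) and Ucp3 (0.29) were higher and Pparg (-0.23) was lower. The coactivator gene Ppargc1a read a mean of 3873 in aTC1 with DMSO and 26.8 in bTC3 with DMSO, a log2 difference of 7.18, and did not pass for GW8510 in either line. It is named after its values were seen.

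Malonyl-CoA and fatty acid synthesis form the opposing pathway. The list for it also holds genes of its regulation, such as a subunit of the AMP-activated kinase. More higher genes therefore need not mean more synthesis. Of 15 genes measured among 17 listed, 4 were higher and 4 lower in aTC1, and 6 were higher and 2 lower in bTC3. These are 26.7% each way in aTC1, near the 20.2% and 21.2% of all genes, and 40% and 13.3% in bTC3, against 19.7% and 14.3% of all. Fasn, the fatty acid synthase, was higher by 0.84 in aTC1 and 0.65 in bTC3, and the elongase Elovl1 by 1.14 and 0.45. In aTC1, Prkag1, a subunit of the AMP-activated kinase, and the malic enzyme Me1 were also higher, at 0.52 and 0.19. Lower in aTC1 were the transcription factor genes Mlxipl (-1.14) and Srebf1 (-0.71) and the desaturases Scd1 (-0.90) and Scd2 (-0.59). Scd1 was higher in bTC3 at 0.63, with a difference between the responses of -1.53 that passed, and Mlxipl (-0.37) and Acly (-0.33) were lower in bTC3. Of 8 ketone body genes, 5 were measured. Aacs (0.82 in aTC1 and 0.69 in bTC3) and Slc16a1 (0.67 and 0.54), a carrier of ketone bodies and lactate, were higher in both lines, Bdh1 was higher in aTC1 (0.49), Oxct1 was lower in both (-0.30 in aTC1 and -0.65 in bTC3) and Acat1 was lower in bTC3 (-0.30).

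Promoter sequences were found for 33 of the 38 genes, with 37 annotated starts, among 32851 starts of RefSeq in all. In each window 5 motifs were searched as exact letters on both strands. The direct repeat of AGGTCA with any 1 base between its copies, which PPAR alpha binds with its partner RXR, was in 0 of the 37 windows and in 0.0396% of all windows. Its hexamer AGGTCA alone, which lies within the repeat and within the next motif, was in 6 of 37 (Acadm, Acadvl, Cpt1a, Echs1, Phyh and Scp2) and in 16.3% of all. The letters TCAAGGTCA, bound by ERR alpha, were in 0 of 37 and in 0.423% of all. For the repeat and for these letters the share over all windows is so low that 0 of 37 cannot tell the set from all windows. GGGCGG was in 27 of 37, against 35.7% of all, and CCAAT in 15 of 37, against 37.4%.

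The 4 windows shown above differed in these letters. The Acaa1b window held no GC box and 4 CCAAT boxes, of which a pair overlap, and had the lowest GC content of the 37, at 43.7%, where the median was 60.3%. The Acaa1a window held 3 GC boxes and 4 CCAAT boxes at 53.3% GC. That of Slc25a20 held 3 GC boxes and no CCAAT box at 58.0% GC, and that of Scp2 held 2 GC boxes, no CCAAT box and 1 AGGTCA at 57.3% GC. A match in these windows is a description of the letters and not of a factor bound there.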

How the data were processed

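RNA of 12 cultures was hybridized to Affymetrix mouse arrays with 22690 probe sets. The deposited values are intensities that the authors made with RMA, which corrects background, normalizes between arrays and combines probes. Its version is not given in the sources used here. RMA values are usually log2, but these are linear between 20 and 20000, limits presumably set by the authors, and were converted here to log2 without a pseudocount. Depth has no meaning for arrays, whose number limits the precision.

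Probe sets were named from the platform annotation. Of them 64 are controls, 20380 carry 1 symbol, 691 several and 1555 none, and 330 with 1 symbol sat at a limit on all arrays and were left out. Each of 12255 genes was read from its brightest probe set, out of several for 4854 genes and for 19 of the 38. One limma fit of all 4 groups (version 3.58.1, R 4.3.3) gave a prior of 3.52 and a residual of 8 degrees of freedom and a median SD of 0.107 on the log2 scale. P-values measure the spread between cultures of a line. The procedure was tested on simulated data. Within a line, deviations of arrays with the same replicate number correlated between -0.13 and 0.08, so no strong shift shared by replicate number was seen. The paper calls its vehicle controls matched, and these correlations cannot settle whether the cultures were paired.

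The 38 genes and the other lists were chosen with earlier results of these data known. Array values are given for Cpt1a, Ppara, Acaa1a and Acaa1b, for the 8 largest non-overlapping changes called in each line and between the DMSO-treated lines and for the 6 largest differences between responses. Other lists are named by their 4 largest changes in each line and by any direction with 5 or fewer genes. Alternatives were the normalization, the probe set, a filter on the dimmest 25% of genes, a pseudocount of 16, the arrays in the fit, the spread estimate, array weights, the replicate number as a block and omission of each array. All 12 value columns were used. Promoters are those of RefSeq on GRCm38.p6. Some genes were not analysed here.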

Additional observations from a re-analysis of the deposited data

Results flagged for a closer look

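For 18 of the 38 genes the response to GW8510 differed between the lines by the interaction term of the limma fit, at an adjusted p under 0.05. Each value is the log2 fold change in aTC1 minus that in bTC3. It was positive for Acaa1b (3.35), Acadvl (0.99), Slc25a20 (0.96), Etfdh (0.91), Eci2 (0.64), Acaa2 (0.60), Acadl (0.59), Etfb (0.58), Acox3 (0.55), Cpt2 (0.53), Hsd17b4 (0.46) and Crot (0.46). It was negative for Scp2 (-0.67), Cpt1a (-0.59), Acadm (-0.42), Acaa1a (-0.35), Hadh (-0.34) and Pex13 (-0.23). Of these, Cpt1a, Cpt2, Hsd17b4, Acaa1a and Pex13 lost the call under at least 1 alternative that gives each gene 1 value, and Acadl, Hadh and Scp2 lost it with another of their probe sets.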

How the results depend on the processing

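Counts of higher genes stayed within 1.5 times under all alternatives, for both responses, their difference and the DMSO-treated lines, as did the count of lower genes between the DMSO-treated lines. The other counts of lower genes did not. In aTC1, 4 genes were lower, and array weights gave 7, with 2 to 7 when single arrays were left out, 2 without any 1 of the aTC1 DMSO arrays and 7 without bTC3 GW8510 replicate 3. In bTC3, 1 gene (Decr1) was lower, and the count was 3 after quantile normalization once more, 2 with arrays centred on the median, 0 with the mean of all probe sets, 0 with trend and robust moderation, 6 with array weights and 0 when every probe set of a gene had to pass. It was 0 to 4 when single arrays were left out, 0 without any bTC3 DMSO array or bTC3 GW8510 replicate 1 and 4 without bTC3 GW8510 replicate 3. Quantile normalization left 15 higher in bTC3. For the difference between the responses, 6 were lower and 1 was when every probe set had to pass.

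The sign turned for another probe set in aTC1 for Cpt1a (-0.014), Scp2 (-0.18) and Pex16 (-0.17), in the difference between responses for Pex13 (0.079, which is also its probe set with the largest SD) and between the DMSO-treated lines for Decr1 (0.052) and Pex5 (0.26, and 0.0084 with the mean of all probe sets). With a replicate block, 23 and 4 genes were higher and lower in aTC1, 16 and 1 in bTC3, 12 and 5 in the difference and 20 and 12 between the DMSO-treated lines, and Pex13 in the difference was the 1 call that changed.

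Of 27 genes called in aTC1, 18 were called in every setting that gave them 1 value, out of at most 22 settings. The same held for 11 of 17 in bTC3 and 28 of 32 between the DMSO-treated lines. It also held for 13 of 18 differences, out of at most 21 settings. The causes were not tested. The filter on the dimmest genes left out Acaa1b, Acox3 and Ehhadh. These genes were therefore read in 21 settings, or in 20 for the difference, and their calls were not tested under that filter. Values near the lower limit of 20, as for Acaa1b and Ehhadh, have the least precision.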
